A study of Mus musculus with 6 samples.

Results

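The comparison set maxillary first molars that carry the Ascl5 mutation on both alleles (Ascl5Mut/Mut) beside molars that carry it on 1 allele (Ascl5Mut/WT). It uses 4 of the 6 libraries of the series, 2 of each mutant genotype, and the 2 Ascl5WT/WT libraries serve only to place the values. All mice were at postnatal day 1, and the labels name 1 batch and no treatment. The labels give neither the nature of the mutation beyond a possible gain of function nor the strain, the sex or the number of animals or teeth behind a library. The 2 mutant genotypes lie in separate tables, which were normalized separately and share the Ascl5WT/WT libraries. The Ascl5Mut/WT table was divided by 1.027, the median ratio of the shared libraries between the tables, and the 24961 genes named in both were joined. Of these, 2314 genes had a mean of at least 1000 normalized counts over the 4 mutant libraries and were compared. No test was made between the tables, so every difference below is a description of these 4 libraries.

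Ascl5 belongs to the basic helix-loop-helix transcription factors and is known from dental epithelium. Such factors bind DNA as pairs with a partner from the same family at short motifs called E-boxes. In a newborn mouse molar, the inner epithelium faces the dental papilla. Papilla cells at that border become odontoblasts, which lay down dentin, while the epithelial cells become ameloblasts, which later lay down enamel. Around the tooth germ lie the dental follicle, which gives rise to the attachment of the tooth, the jaw bone with its osteoclasts, oral mucosa and muscle. A dissected molar can carry RNA from all of them.

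The libraries were shallow. A normalized count of 124 to 140 was worth about 1 read in the mutant libraries, which puts the depth at an estimated 90476 to 103278 reads, and the minimum mean of 1000 corresponds to about 7.15 to 8.09 reads. A gene at 0 in a mutant library could therefore have had up to 371 to 419 normalized counts, the value of 3 reads, and this limit covers counting error only. Ascl5 itself was at 0 in all 6 libraries, so the targeted gene gave no check of the labels. The tissue label rests on few transcripts: the ameloblast markers Amelx and Mmp20 were at 0 in both Ascl5Mut/Mut libraries and in Ascl5Mut/WT replicate 2. In Ascl5Mut/WT replicate 1 Amelx had 124 and Mmp20 had 246 normalized counts, about 1 and 2 reads. Ambn had 140 and 0 in Ascl5Mut/Mut and 373 and 132 in Ascl5Mut/WT. Col1a1 and Dlx1 were above 0 in all 4. The replicate 1 libraries of both mutant genotypes were rich in muscle RNA and the replicate 2 libraries in keratin RNA. Across the compared genes, the 2 Ascl5Mut/Mut libraries correlated at 0.526, lower than either correlated with the Ascl5Mut/WT library of the same replicate number (0.68 and 0.608). The 2 Ascl5Mut/WT libraries correlated at 0.698. These correlations are across genes, on the log2 scale, and share depth and gene abundance.

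Differences are given as Ascl5Mut/Mut minus Ascl5Mut/WT in mean log2(normalized count + 120), with the pooled replicate SD on the same scale (n = 2 and 2). The pseudocount of about 1 read understates the difference of low genes. A gene was called when the libraries of the 2 genotypes did not overlap and the means lay at least 2 apart, which is 4-fold. By that rule, 31 genes (1.34%) stood higher in Ascl5Mut/Mut and 51 (2.2%) stood lower, 82 (3.54%) in all. At any size of difference, both Ascl5Mut/Mut libraries were above both Ascl5Mut/WT libraries for 16.7% of the compared genes and below them for 19.5%, and the groups overlapped for 63.8%. The median difference over all 2314 genes was -0.04, with 5th and 95th percentiles of -1.64 and 1.31. Just inside the threshold lay Tns1 at 2.005 and Bptf at 2.034, and just outside it Rtn4 at -1.997 and Ankrd6 at -1.996.

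**Figure D1:**
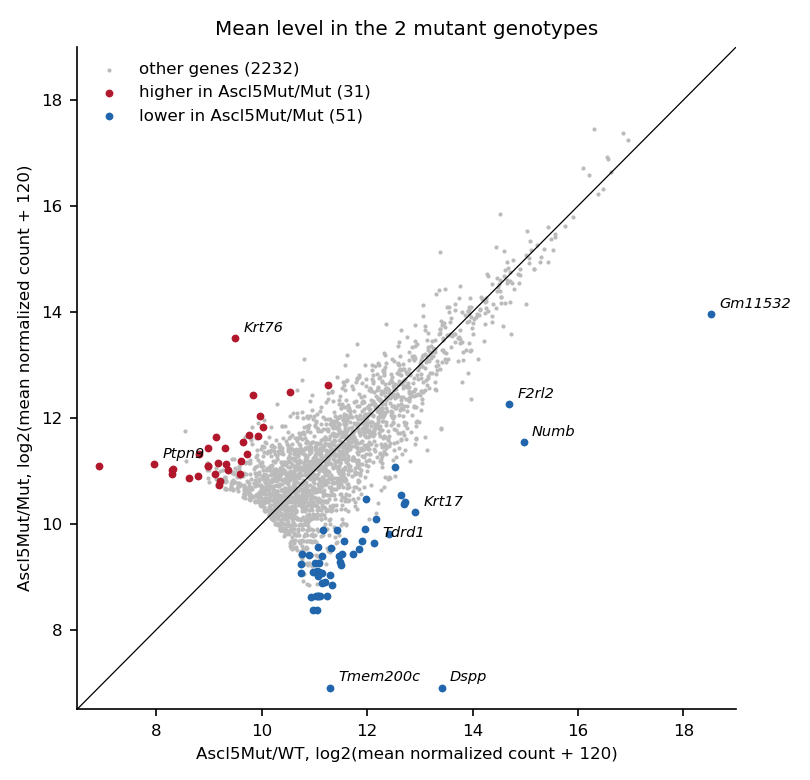
Mean level of the 2314 compared genes in Ascl5Mut/WT (horizontal) and Ascl5Mut/Mut (vertical), each as log2(mean normalized count + 120) over 2 libraries, with the line of equality. The 31 genes called higher and the 51 called lower are coloured, and Dspp, Numb, F2rl2 and the gene model Gm11532 lie farthest below the line among genes of high level.

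Libraries of the same genotype lay far apart for many genes. Between the 2 Ascl5Mut/Mut libraries 13.3% of the compared genes differed by 4-fold or more, between the 2 Ascl5Mut/WT libraries 6.7%, and between the means of the mutant genotypes 3.98%. A mean of 2 libraries varies less than 1 library, so these shares are not on an equal footing. Of the calls, 8 of the 31 higher genes and 6 of the 51 lower genes met the rule with each of the 4 libraries left out in turn. The 8 higher genes were H2-L, Ptpn9, Ap2m1, Slc7a15, Fbf1, Strn3, Clic4 and Krt76. The 6 lower genes were Dspp, Tmem200c, Numb, F2rl2 and the gene models Gm11532 and Gm13205. Without Ascl5Mut/Mut replicate 1 the rule named 76 higher and 158 lower genes, without replicate 2 it named 62 and 89, without Ascl5Mut/WT replicate 1 it named 67 and 80, and without replicate 2 it named 67 and 66, since a single library on one side overlaps less often. Of the original 31 higher genes 16 to 26 were among these, and of the 51 lower genes 26 to 44.

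**Figure D2:**
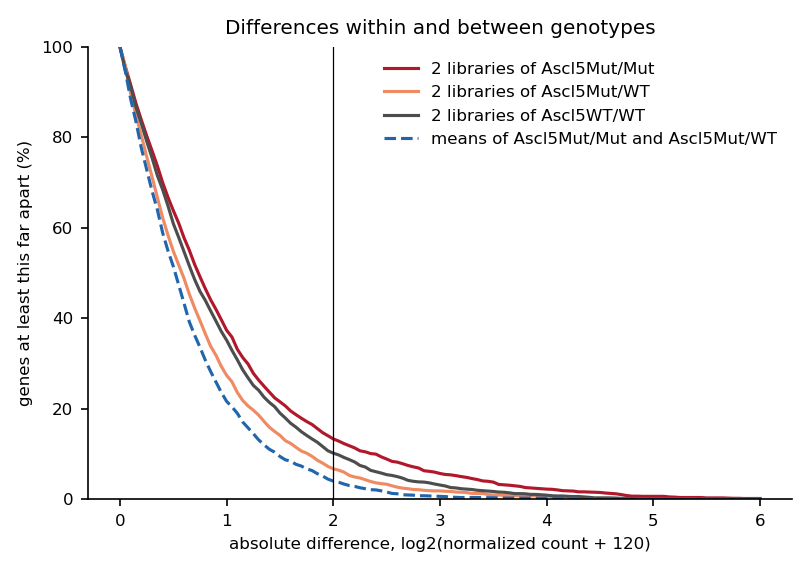
Share of the 2314 compared genes (vertical, percent) that lay at least a given absolute log2 difference apart (horizontal), for the 2 libraries of each genotype and for the means of the 2 mutant genotypes. At the vertical line, a difference of 2, the Ascl5Mut/Mut libraries reach 13.3% and the genotype means 3.98%.

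The E-box was sought in the promoters of these genes because it is the kind of motif that Ascl5's family binds. RefSeq promoters (GRCm38.p6) were found for 24 of the 31 higher and 41 of the 51 lower genes, and the 250 bases before the start were searched on both strands for CANNTG, which reads the same on both. It was present in 12 of 24 higher genes (50%), 21 of 41 lower genes (51.2%), 57.6% of the 1788 compared genes with a promoter and 66% of all 27025 promoters. The form CAGCTG, which is also counted under CANNTG, was present in 6 of 24 higher genes (25%), 5 of 41 lower genes (12.2%), 13.8% of the compared genes and 12.8% of all promoters. The shares of CANNTG in both groups thus lay under that of all promoters, and the share of CAGCTG in the higher genes rests on 6 genes. A match describes the letters and is not a binding site. The promoters of Numb (chr12:83921935-83922184, minus strand), which holds no E-box, Krt76 (chr15:101892921-101893170, minus strand), with 1, and Tdrd1 (chr19:56825959-56826208, plus strand), with 2, are shown 5′ to 3′ as examples of called genes, with E-boxes in capitals.
Numb: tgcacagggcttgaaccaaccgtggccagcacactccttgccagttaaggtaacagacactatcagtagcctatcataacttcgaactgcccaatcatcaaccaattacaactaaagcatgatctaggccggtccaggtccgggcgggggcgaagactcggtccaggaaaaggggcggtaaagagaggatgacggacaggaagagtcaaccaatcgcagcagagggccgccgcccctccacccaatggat
Krt76: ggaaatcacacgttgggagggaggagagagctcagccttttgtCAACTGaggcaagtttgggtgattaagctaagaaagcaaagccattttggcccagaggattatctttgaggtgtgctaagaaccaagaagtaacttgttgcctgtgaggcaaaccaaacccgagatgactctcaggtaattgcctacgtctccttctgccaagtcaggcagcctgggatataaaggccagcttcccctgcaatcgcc
Tdrd1: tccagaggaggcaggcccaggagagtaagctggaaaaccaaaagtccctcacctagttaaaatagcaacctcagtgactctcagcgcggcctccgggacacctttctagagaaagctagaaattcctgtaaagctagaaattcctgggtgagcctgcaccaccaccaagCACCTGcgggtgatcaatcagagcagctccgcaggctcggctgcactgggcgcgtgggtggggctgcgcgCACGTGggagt
Searched over the same window, these 3 promoters differ in E-boxes while Numb and Tdrd1 both stood lower in Ascl5Mut/Mut and Krt76 stood higher.

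Dspp, which encodes the dentin sialophosphoprotein that odontoblasts secrete into dentin, had the widest gap of all compared genes. It lies on chromosome 5 (104170712 to 104180127, plus strand, GRCm38). It was at 0 in both Ascl5Mut/Mut libraries and reached 13671 and 7906 normalized counts in those of Ascl5Mut/WT. In Ascl5WT/WT it had 327 and 0, so the Ascl5Mut/WT libraries stood apart from all 4 others. With Ascl5Mut/Mut at 0 no fold is given, and its log2 difference depends on the pseudocount (-6.45 at 120, -13.34 at 1 and -4.90 at 360). The other odontoblast markers stood differently. Dmp1, a matrix protein of dentin and bone, had 692 and 551 normalized counts in Ascl5Mut/Mut and 368 and 402 in Ascl5Mut/WT, a few reads in each library. Col1a1, the main collagen of dentin and bone, had 46509 and 26959 against 44195 and 26561, a difference of 0.047. Of the 16 genes listed for odontoblasts and dentin, 5 passed the mean of 1000, Dspp was the only one of them whose groups did not overlap, and the median difference of the 5 was 0.05. Smpd3, a sphingomyelinase needed for mineralization, had the next largest difference and its groups overlapped, with 1256 and 0 against 858 and 2597. The groups overlapped for 63.8% of all compared genes.

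Numb, an adaptor that antagonizes Notch and is sorted to 1 daughter cell at division, was the most abundant named gene among those called lower. It had 1532 and 4195 normalized counts in Ascl5Mut/Mut, 22035 and 41934 in Ascl5Mut/WT and 25020 and 15224 in Ascl5WT/WT. The Ascl5Mut/Mut mean was 11.2-fold below the Ascl5Mut/WT mean (log2 difference -3.51, SD 0.83), and both Ascl5Mut/Mut libraries lay below all 4 others. Its exons overlap the opposite-strand gene model Gm46367 by 166 bases. Notch2, a receptor of the same pathway, had 1255 and 2215 against 4177 and 6619, without overlap (difference -1.59, SD 0.50). Jag1, a Notch ligand, was at 0 in both Ascl5Mut/Mut libraries and had 124 and 530 in Ascl5Mut/WT, the former of which is about 1 read. Notch1, the other member past the mean of 1000, had 1242 and 1700 against 368 and 3314, and its groups overlapped. The summed level of the 16 listed Notch genes was 8064 and 9628 in Ascl5Mut/Mut and 28786 and 53619 in Ascl5Mut/WT. Without Numb, it was 6532 and 5432 against 6751 and 11685, so the groups parted only narrowly, at 6532 against 6751. Of the 12 Notch genes above 0 in a mutant library, 3 (Numb, Notch2 and Jag1) were lower and 1 higher without overlap. Over the 12683 genes above 0, 13% were lower and 12.2% higher.

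F2rl2, which encodes the protease-activated receptor PAR3, was high in every library and followed no simple order of mutant alleles. It had 4066 and 5477 normalized counts in Ascl5Mut/Mut, 23528 and 29430 in Ascl5Mut/WT and 14302 and 8699 in Ascl5WT/WT. Both Ascl5WT/WT libraries lay between the mutant genotypes, and the Ascl5Mut/Mut mean was 5.55-fold below the Ascl5Mut/WT mean (log2 difference -2.45, SD 0.26). Its exons overlap no gene on the opposite strand. Tmem200c, a transmembrane protein gene, was at 0 in both Ascl5Mut/Mut libraries, against 1722 and 3056 in Ascl5Mut/WT and 1942 and 1939 in Ascl5WT/WT. Its exons overlap a gene on the opposite strand by 91 bases.

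Jak1, the kinase that relays cytokine receptor signals, had 841 and 1884 normalized counts in Ascl5Mut/Mut and 6154 and 6405 in Ascl5Mut/WT, a 4.61-fold difference of the means (log2 -2.20, SD 0.53). Ascl5WT/WT had 7087 and 8960. Ythdc1, a nuclear reader of methylated adenosine in RNA, had 420 and 135 against 2058 and 1970, and Ascl5WT/WT had 3318 and 2946. For Jak1 and Ythdc1, both Ascl5WT/WT libraries thus lay above all 4 mutant libraries, and the exons of Jak1 overlap a gene on the opposite strand by 4 bases. Pdzrn3, a ubiquitin ligase with PDZ domains, had 426 and 0 against 1596 and 2175, and its Ascl5WT/WT values of 651 and 714 lay between. Tdrd1, a tudor domain protein of the piRNA pathway, had 0 and 1345 in Ascl5Mut/Mut, 4183 and 4595 in Ascl5Mut/WT and 21355 and 16039 in Ascl5WT/WT. The 3 genotypes of Tdrd1 did not overlap and stood in the order of the number of wild-type alleles, although Ascl5Mut/Mut replicate 1 was at 0 and the SD was 1.81.

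Kctd10, Lrba, Tmtc4 and Foxq1 had wide gaps too, and the exons of each overlap a gene on the opposite strand by 1097 to 3200 bases. Foxq1, a forkhead transcription factor, had 424 and 296 normalized counts in Ascl5Mut/Mut and 1716 and 2776 in Ascl5Mut/WT. Tmtc4 had 554 and 0 against 2225 and 2354, and Ascl5WT/WT, at 218 and 608, stood with Ascl5Mut/Mut. Kctd10, an adaptor of a ubiquitin ligase, had 420 and 0 against 1839 and 2152. Asb14 and Myh14, the latter a non-muscle myosin heavy chain, completed the 15 lower genes with the widest gaps, at differences of -2.23 and -2.28. Of the 51 lower genes, 27 had exons that overlap a gene on the opposite strand, as did 11 of the 31 higher genes and 50.1% of the compared genes. The kit keeps strand, but the strand setting of the counting is not given in the sources used here, and without it reads of overlapping genes cannot be told apart.

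The most abundant transcript called lower was such a case, a gene model that the naming rule left out and that was chosen after its values were seen. Gm11532 had 2113 and 29497 normalized counts in Ascl5Mut/Mut, 346933 and 406622 in Ascl5Mut/WT and 869884 and 389895 in Ascl5WT/WT, so both Ascl5Mut/Mut libraries lay far below all others. It overlaps by 3329 bases the exons of Sp6 on the opposite strand, which encodes epiprofin, a transcription factor of the dental epithelium. Sp6 was at 0 in both Ascl5Mut/Mut libraries and had 493 and 543 in Ascl5Mut/WT and 1525 and 0 in Ascl5WT/WT. Which of the overlapping genes the reads came from was not tested.

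**Figure D3:**
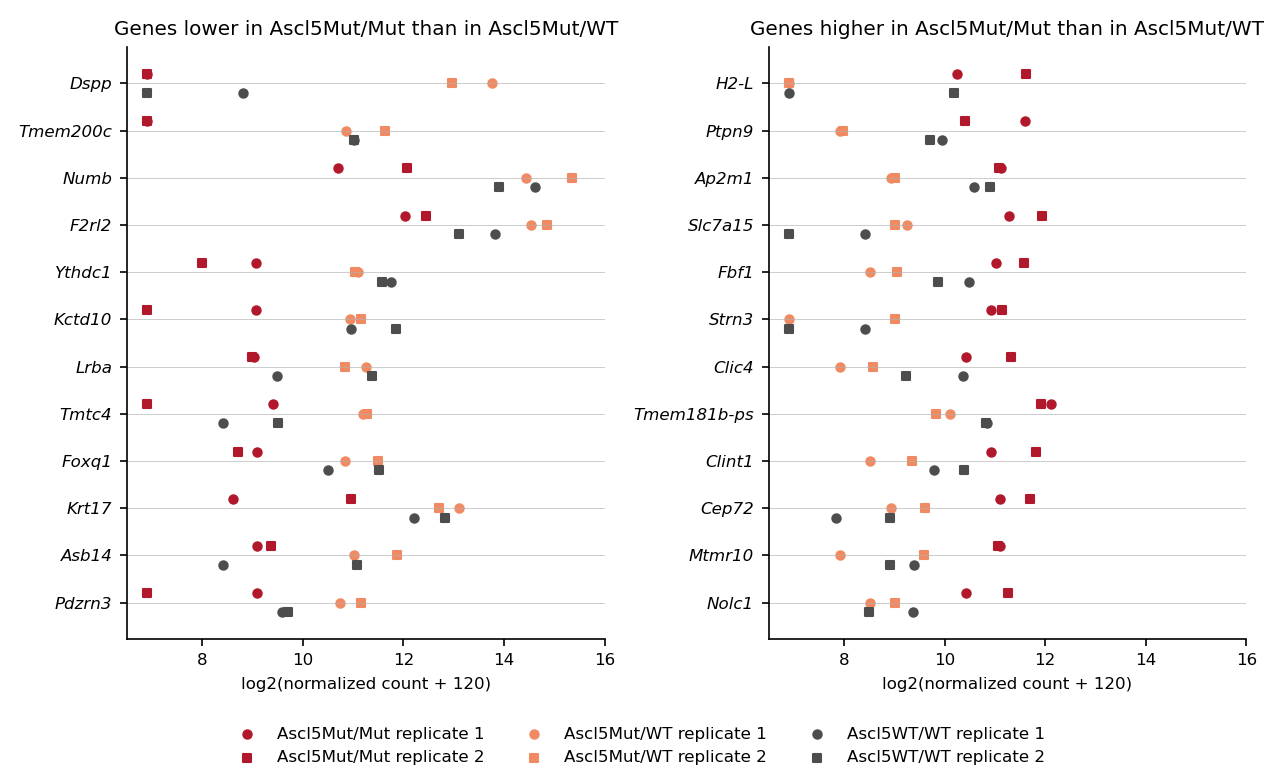
Level in each library, as log2(normalized count + 120), of the 12 named genes with the widest gap below (left) and above (right) Ascl5Mut/WT, in Ascl5Mut/Mut, Ascl5Mut/WT and Ascl5WT/WT with replicate 1 as circles and replicate 2 as squares. A value of 0 sits at the left edge near 6.9, where both Ascl5Mut/Mut libraries lie for Dspp and Tmem200c and both Ascl5Mut/WT libraries for H2-L.

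The genes called higher had lower levels than the leading genes called lower, and their differences rest on few reads, an estimated 29 to 178 over the 4 libraries together with a median of 38. The genes called lower had an estimated 31 to 6092 reads with a median of 43, so many of them rest on few reads as well. Ap2m1, the medium subunit of the AP-2 clathrin adaptor, had 2096 and 2036 normalized counts in Ascl5Mut/Mut and 368 and 396 in Ascl5Mut/WT, a 5.41-fold difference of the means (log2 2.12, SD 0.046). Ascl5WT/WT had 1425 and 1796, between the mutants. Clint1, a clathrin interactor, had 1809 and 3496 against 245 and 530, and its Ascl5WT/WT values of 770 and 1209 also lay between. Fbf1, a component of the centriole's distal appendages, had 1950 and 2925 against 245 and 414, and Cep72, a centrosomal protein, had 2091 and 3216 against 369 and 657. The tyrosine phosphatase gene Ptpn9 had 2975 and 1231 against 124 and 133, the latter about 1 read in each library, and Ascl5WT/WT had 862 and 715. The exons of Ptpn9 overlap a gene model on the opposite strand by 170 bases.

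Other genes were higher in Ascl5Mut/Mut than in both other genotypes. Slc7a15, of a family of amino acid transporters, had 2354 and 3794 normalized counts in Ascl5Mut/Mut against 487 and 395 in Ascl5Mut/WT. Strn3, a striatin subunit of a phosphatase complex, had 1820 and 2145 against 0 and 396. For both genes, both Ascl5WT/WT libraries lay below both Ascl5Mut/Mut libraries. Further higher genes with wide gaps, Clic4, Tmem181b-ps, Mtmr10, Nolc1 and Pak3, had differences of 2.62, 2.06, 2.32, 2.07 and 2.88, of which Pak3 had the largest SD, at 1.28.

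H2-L, a class I histocompatibility gene, had the widest gap upward, with 1088 and 3018 in Ascl5Mut/Mut and 0 in both Ascl5Mut/WT libraries, but its value is uncertain. Class I genes are near-identical copies that can share reads. H2-D1 was at 0 in both Ascl5Mut/Mut libraries and had 2068 and 270 in Ascl5Mut/WT. Summed over H2-L, H2-D1 and H2-K1, the values were 1088 and 3157 against 2068 and 270, and the groups overlapped.

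The called genes fall into sets by the position of Ascl5WT/WT. Of the 31 higher genes, both Ascl5WT/WT libraries lay clear of Ascl5Mut/Mut, toward the other mutant and reaching into or past its range, for 18. For 3 they lay clear of Ascl5Mut/WT in the same sense, and for 6 they lay between the mutants. Of the 51 lower genes these counts were 25, 13 and 5, with Numb among the 25 and Dspp among the 13. Over all non-overlapping genes the counts were 215, 68 and 20 of 386 higher, and 169, 143 and 30 of 451 lower. For the remaining genes of each set, Ascl5WT/WT was clear of neither. Both mutant genotypes share these Ascl5WT/WT libraries, so the counts are a description.

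Several genes of dental epithelium and its signals stood lower in Ascl5Mut/Mut, at levels near the limit of these libraries. None of the 15 genes listed for the enamel knot, the signalling centre of the tooth germ, and dental epithelial signals passed the mean of 1000. Of the 12 above 0 in a mutant library, 5 had both Ascl5Mut/Mut libraries below both Ascl5Mut/WT libraries and 0 the reverse, against 13% and 12.2% of the 12683 genes above 0 in a mutant library. Shh, the hedgehog ligand of dental epithelium, was at 0 in both Ascl5Mut/Mut libraries, against 1106 and 1492 normalized counts in Ascl5Mut/WT and 2146 and 1340 in Ascl5WT/WT. Its exons overlap 9530036O11Rik on the opposite strand by 446 bases. Sostdc1, a secreted BMP and Wnt antagonist, was at 0 in both Ascl5Mut/Mut libraries, against 244 and 527 and, in Ascl5WT/WT, 1413 and 1684. The list summed to 560 and 139 in Ascl5Mut/Mut and to 2708 and 4199 in Ascl5Mut/WT.

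Gli1, a transcription factor that the pathway induces, was at 0 in both Ascl5Mut/Mut libraries and had 491 and 278 in Ascl5Mut/WT, and Ptch1, the receptor it also induces, had 139 and 0 against 617 and 400. Of the 12 hedgehog genes above 0, 3 were lower and 1, Gas1, a co-receptor, was higher without overlap, against 13% lower and 12.2% higher of the 12683 genes above 0. Trp63, the transcription factor of stratified epithelia, was the only one of 16 listed dental epithelial transcription factors past the mean of 1000. It had 1049 and 5829 in Ascl5Mut/Mut, 6654 and 14762 in Ascl5Mut/WT and 21134 and 13756 in Ascl5WT/WT (difference -1.93, SD 1.30). Among genes of basal and general epithelium, Krt17, a keratin of activated and embryonic epithelium, was called lower, with 272 and 1864 against 8648 and 6526, and the other 8 of 9 past the mean overlapped, Krt14 among them at 6362 and 20549 against 12823 and 35799. The groups overlapped for 63.8% of all compared genes. At any level, 6 of the 27 genes of that list above 0 were lower and 2 higher, against 13% and 12.2% of the 12683 genes above 0. The sum of that list was 21506 and 88830 in Ascl5Mut/Mut and 40677 and 101052 in Ascl5Mut/WT. By this sum the Ascl5Mut/Mut replicate 1 library held less epithelial RNA, while replicate 2 lay between the 2 Ascl5Mut/WT libraries. In Ascl5Mut/Mut replicate 2, Dsp and Krt14 gave 40760 and 20549 of the 88830, so the sum does not measure dental epithelium as such. Krt17, Numb and Dspp were below both Ascl5Mut/WT libraries in that library by the rule that called them, so the sum cannot be set against them. In these bulk samples, fewer cells of a type and less RNA per cell cannot be told apart.

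Among partners of Ascl5, Tcf4, which pairs with factors of its family, had 969 and 1461 in Ascl5Mut/Mut against 1720 and 1576 in Ascl5Mut/WT, a difference of -0.43 with no overlap. It was the only gene of that list past the mean of 1000. Below it, Tcf3 had 0 and 143 against 614 and 556 and Id1, an inhibitor of such pairs, had 276 and 0 against 2067 and 543. Of the 8 genes of that list above 0 in a mutant library, 4 were lower without overlap and 0 higher, against 13% and 12.2% of the 12683 genes above 0. Of the Wnt pathway, 4 of 24 genes passed the mean. Dkk3, a secreted protein of the Dickkopf family, was the only one of them without overlap, with 554 and 821 in Ascl5Mut/Mut, 2577 and 2657 in Ascl5Mut/WT and 1093 and 962 in Ascl5WT/WT (difference -1.78, SD 0.24). Fzd2, a Wnt receptor, overlapped, with 3096 and 1850 against 2700 and 7248. Of all compared genes, 19.5% were lower and 16.7% higher without overlap. At any level, 5 of the 24 Wnt genes were lower and 1 higher, against 13% and 12.2% of the 12683 genes above 0.

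Many matrix genes of mesenchyme stood higher in Ascl5Mut/Mut. Of 24 fibrillar collagen and matrix genes, 18 passed the mean of 1000, 11 of them were higher without overlap and 0 lower, where 16.7% of all compared genes were higher and 19.5% lower. None was called, and their median difference was 0.59 against -0.04 over all genes. Postn, periostin, a matrix protein of the periodontal ligament and periosteum, had 16124 and 11457 normalized counts in Ascl5Mut/Mut and 3849 and 6408 in Ascl5Mut/WT, the largest difference of those 18 at 1.43 (SD 0.43). Tnc, tenascin C, had 5876 and 5500 against 3575 and 1340. Fn1, fibronectin, had 11089 and 7276 against 6486 and 3679, and Col6a1 had 3187 and 6737 against 1720 and 1914. The fibrillar collagens Col1a1 and Col1a2 overlapped, so the sum of the list, 245649 and 177538 against 186630 and 112222, overlapped as well.

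The dental follicle list shared Postn and Tnc with it. Of its 9 genes past the mean of 1000, 5 were higher without overlap and 1 lower, and the median difference was 0.25. Over all compared genes, 16.7% were higher and 19.5% lower without overlap. Ogn, osteoglycin, had 6974 and 6753 in Ascl5Mut/Mut against 4672 and 2433 in Ascl5Mut/WT. Igfbp5, which binds insulin-like growth factors, had 38667 and 43801 against 34456 and 34783, a small difference of 0.25. Mest, an imprinted mesenchymal gene, was the lower one, at 4987 and 5059 against 6793 and 5668. The exons of Mest overlap the more abundant Copg2 on the opposite strand by 912 bases. Copg2 stood the other way, at 196278 and 143155 against 129858 and 107794, and their reads cannot be told apart here.

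**Figure D4:**
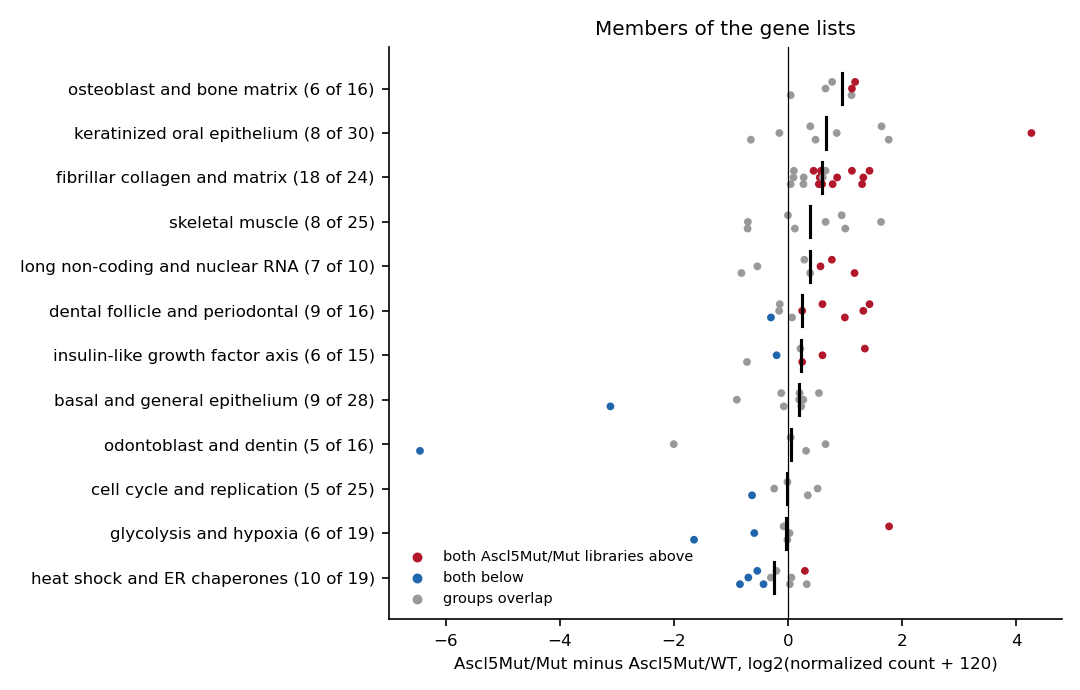
Difference of each list member past the mean of 1000 (points, Ascl5Mut/Mut minus Ascl5Mut/WT in log2(normalized count + 120)) and the list median (bar), for lists with at least 5 such members, whose number of all listed is in parentheses. Red points have both Ascl5Mut/Mut libraries above, blue points both below, and grey points overlap. The collagen and matrix list has 11 red and 0 blue points, and Dspp at -6.45 and Krt17 at -3.11 lie far from their lists.

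Some bone and osteoclast markers past the mean of 1000 stood higher too, by less than 4-fold. Ctsk, or cathepsin K, with which osteoclasts digest bone collagen, had 11106 and 7277 normalized counts in Ascl5Mut/Mut, 4702 and 1302 in Ascl5Mut/WT and 109 and 120 in Ascl5WT/WT (difference 1.80, SD 0.93), so the 3 genotypes did not overlap and followed the number of mutant alleles. Mmp9, a matrix protease of the same cells, overlapped at 4815 and 1661 against 2430 and 676. Atp6v0d2, a subunit of the osteoclast proton pump, had 844 and 2032 against 0 and 133 and stayed under the mean of 1000. Of the 14 osteoclast genes in the tables, 10 were above 0 in a mutant library, 2 of them (Ctsk and Atp6v0d2) were higher without overlap and 0 lower, against 12.2% and 13% of the 12683 genes above 0. Others had larger values in Ascl5Mut/WT while overlapping, such as Itgb3, an integrin subunit, with 421 and 0 against 860 and 0, and Clcn7, a chloride transporter, with 138 and 275 against 244 and 403. The osteoclast list summed to 18257 and 12513 against 9703 and 2906, most of it from Ctsk and Mmp9. In the osteoblast list, 6 of 16 genes passed the mean. Of these, 2 were higher without overlap and 0 lower, where 16.7% of all compared genes were higher and 19.5% lower. They were Ibsp, bone sialoprotein, with 21832 and 19262 against 14446 and 5591, and Sparc with 9099 and 7085 against 6508 and 1998. Under that mean, Runx2, the transcription factor that starts bone formation, and Alpl, the mineralizing phosphatase, stood the other way without overlap. Runx2 had 0 and 141 against 1288 and 403 and Alpl had 549 and 139 against 974 and 1486. The exons of Runx2 overlap Runx2os1 on the opposite strand by 519 bases. Phex, Dmp1 and Mepe, also under that mean, were higher without overlap. At any level, 5 of the 16 genes were thus higher and 2 lower, against 12.2% and 13% of the 12683 genes above 0. Ascl5Mut/WT replicate 2 was the low library for Ctsk, Ibsp, Sparc, Spp1 and Bglap, and without it the median of the osteoblast list went from 0.94 to -0.096. How much jaw bone was taken along with the tooth was not tested.

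Oral mucosa and muscle RNA varied within the genotypes. Krt76, a keratin of palate and gum epithelium, had 2761 and 20277 normalized counts in Ascl5Mut/Mut, 0 and 1197 in Ascl5Mut/WT and 0 and 0 in Ascl5WT/WT, and was the only one of 8 keratinized epithelium genes past the mean of 1000 without overlap (difference 4.27, SD 2.23). Its exons overlap a gene model on the opposite strand by 111 bases. Of all compared genes, 16.7% were higher without overlap. At any level, 4 of the 21 keratinized epithelium genes above 0 were higher and 0 lower, against 12.2% and 13% of the 12683 genes above 0. Krt4, a keratin of mucosa, had 5922 and 38281 against 7929 and 14631, and its partner Krt13 had 5344 and 38097 against 3539 and 17337, and both overlapped. The 30 listed genes summed to 21993 and 142891 against 16041 and 54578, with replicate 2 the higher in each genotype. Their median difference of 0.67 was -0.54 without Ascl5Mut/Mut replicate 2 and -0.11 without Ascl5Mut/WT replicate 1. Skeletal muscle genes summed to 255373 and 11648 in Ascl5Mut/Mut and 76417 and 20038 in Ascl5Mut/WT, and all 8 past the mean overlapped, Myh8, the perinatal myosin, at 68080 and 3848 against 17242 and 3752. The groups overlapped for 63.8% of all compared genes. The summed levels of endothelium (4213 and 3062 against 1386 and 1636), Schwann cell and nerve (7123 and 2202 against 1717 and 1956) and cartilage (7621 and 7778 against 4333 and 4696) were higher in both Ascl5Mut/Mut libraries. Without overlap, 3 of the 10 endothelium genes above 0 were higher and 2, Kdr and Tek, lower. For Schwann cell and nerve 1 of 10 was higher and 0 lower, and for cartilage 2 of 7 were higher and 1 lower. Over the 12683 genes above 0, 12.2% were higher and 13% lower. The part of these tissues in the matrix and bone differences was not tested.

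**Figure D5:**
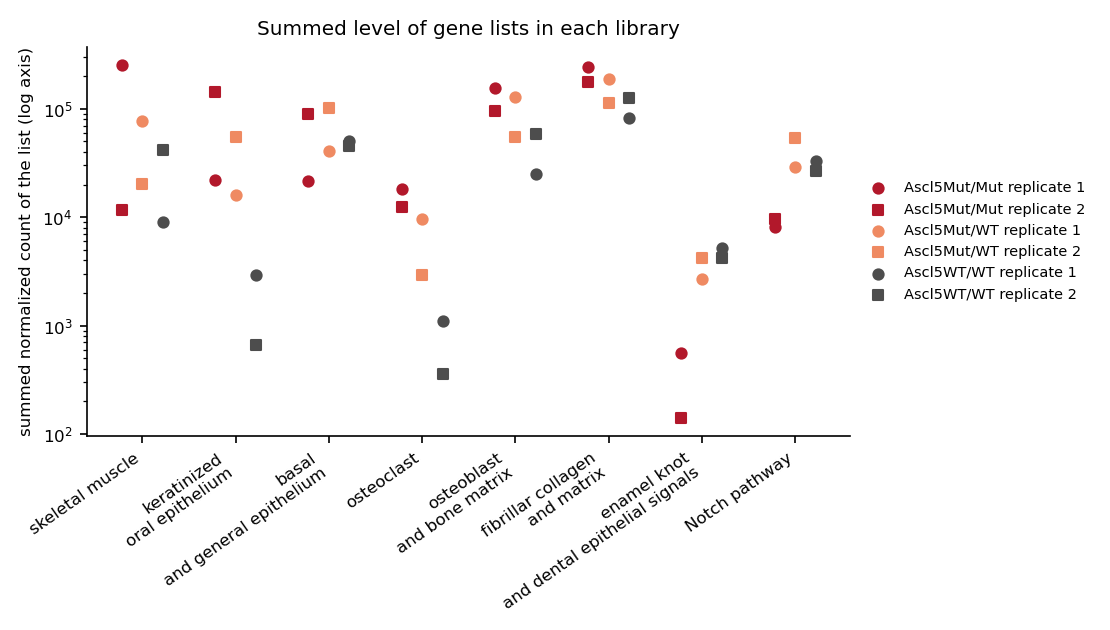
Summed normalized count (vertical, log axis) of 8 gene lists in each of the 6 libraries, coloured by genotype with replicate 1 as circles and replicate 2 as squares. The Notch and enamel knot sums are lower in both Ascl5Mut/Mut libraries than in both Ascl5Mut/WT libraries, the osteoclast sum is higher, and the muscle and keratinized epithelium sums spread widest within genotypes.

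Of 14 clock genes listed, 2 passed the mean of 1000 and both were lower without overlap. Clock, a core activator of the circadian clock, had 12594 and 11780 against 19837 and 34520 (difference -1.10, SD 0.40), and Ascl5WT/WT had 15813 and 12005. Dbp, an output transcription factor of the clock, had 284 and 442 against 2585 and 700. The exons of Dbp overlap Sphk2 on the opposite strand by 539 bases. Under the mean, Ciart, a repressor of the clock, had 279 and 277 against 1599 and 1740, while Nr1d2 and Cry1 were higher in Ascl5Mut/Mut without overlap, at a few reads each. Over all 14 genes, 4 were lower and 2 higher, where 13% and 12.2% of the 12683 genes above 0 in a mutant library were. The time of day of dissection is not given in the labels.

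For 8 of 15 genes known from earlier results of these data to set a mutant apart from Ascl5WT/WT, the mutants overlapped each other. The mutants overlapped for 63.8% of all compared genes, so this count does not set these genes apart. Dlx1, a homeobox gene of dental mesenchyme, had 2348 and 556 normalized counts in Ascl5Mut/Mut and 4534 and 2009 in Ascl5Mut/WT, against 47224 and 53336 in Ascl5WT/WT. Gpr39, a zinc-sensing receptor, had 2100 and 2599 in Ascl5Mut/Mut and 8112 and 1596 in Ascl5Mut/WT, against 58793 and 58649. Both mutants were thus low and overlapped each other. The exons of Dlx1 and Gpr39 overlap Dlx1as and Lypd1 on the opposite strand, by 335 and 1202 bases. Afap1l2, an actin-associated adaptor, was graded, with 558 and 2381 in Ascl5Mut/Mut, 4901 and 4639 in Ascl5Mut/WT and 15834 and 19367 in Ascl5WT/WT. Of the other 7 genes, 4 were higher and 3, with Numb and Tdrd1 beside Afap1l2, were lower in Ascl5Mut/Mut. Over all compared genes, 16.7% were higher and 19.5% lower without overlap.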

How the data were processed

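Each of the 2 deposited tables lists normalized counts of 24972 genes, a signal that the authors left on a linear scale, for the Ascl5WT/WT libraries and 1 mutant genotype. Libraries were made from total RNA with a SMARTer Stranded kit, per the labels' protocols. The submitters' processing notes name mm10 and DESeq2, and the aligner, annotation and strand setting were not stated in the labels or headers. The 11 unjoined genes are March family names damaged in 1 table. After scaling, the shared libraries differed by -0.94% and 1.32% between tables. Low values lay within 0.1 of a whole read for 83.9% to 93.4% per library, too few to recover reads, so no count model was run. With 2 libraries per group, an exact permutation test cannot go below p = 0.33, and none was run. Named genes are the 15 higher and 15 lower with the widest gap between groups, without gene models, the 2 members of each list with the largest absolute difference past the mean, Ascl5 and cell type markers. A result under this rule is not reported here. Other members printed to illustrate a list were chosen after their values were seen. Members and lists were chosen with earlier results of these data known. Whether replicates are separate animals is not stated beyond their labels, so the spread may be partly technical. Overlaps come from GENCODE M21 (GRCm38). The script (Python 3.11.15, numpy 2.4.6, pandas 2.3.3) was tested on simulated data. Alternatives changed the pseudocount, minimum mean, scaling, fold and libraries.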

Additional observations from a re-analysis of the deposited data

Results flagged for a closer look

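For 10 named genes, the 2 mutant genotypes stood on opposite sides of Ascl5WT/WT: both libraries of one mutant genotype lay above both Ascl5WT/WT libraries and both libraries of the other below. The difference was not tested. Ptpn9 (3.04), Ap2m1 (2.12), Fbf1 (2.51), Clic4 (2.62), Tmem181b-ps (2.06) and Clint1 (2.44) were above Ascl5WT/WT in Ascl5Mut/Mut and below it in Ascl5Mut/WT, with the log2 difference between the mutants in parentheses. F2rl2 (-2.45), Pdzrn3 (-2.95), Dkk3 (-1.78) and Dbp (-1.64) were below it in Ascl5Mut/Mut and above it in Ascl5Mut/WT. For Dbp, whose Ascl5WT/WT values were 518 and 690, both margins were smaller than the value of 1 read. Its nearest mutant values were 442 in Ascl5Mut/Mut and 700 in Ascl5Mut/WT. Over the 2314 compared genes, the former order was found for 20 (0.864%) and the latter for 30 (1.3%). Only genes whose mutants do not overlap can show these orders, and of those genes they were 20 of 386 higher and 30 of 451 lower. Most of the 10 genes were named for their wide gap between the mutants, so their number cannot be set against these shares.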

How the results depend on the processing

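The calls depended on the settings. With 31 genes higher and 51 lower as reported, a pseudocount of 1 gave 47 higher and 74 lower, and one of 360 gave 10 and 17. A minimum mean of 300 gave 216 and 258, one of 3000 gave 4 and 10, and no minimum gave 283 and 382. A 2-fold difference gave 150 and 201. Leaving out 1 library at a time gave 62 to 76 higher and 66 to 158 lower. Added after seeing the data, leaving out genes that overlap the opposite strand gave 20 and 24 among 1154 genes. Other scalings gave 27 to 31 higher and 49 to 59 lower. With a replicate block, in which every same-numbered pair had to differ by 4-fold, 12 higher and 12 lower genes were called, 12 and 11 of them among the original calls. The labels do not say what a replicate number shares, and the replicate differences of the 2 mutant genotypes correlated at 0.199 across genes. In both genotypes replicate 1 held more muscle and Y-linked RNA and replicate 2 more keratin RNA. No paired test was run, by choice, since the tables were normalized separately. Of the 32 called named genes, 0 reversed in 392 recomputations. A called gene cannot change sign when 1 library is left out or the pseudocount is changed, so this count does not measure robustness. The osteoblast list reversed without Ascl5Mut/WT replicate 2 (-0.096) and the keratinized oral epithelium list without Ascl5Mut/Mut replicate 2 (-0.54) and without Ascl5Mut/WT replicate 1 (-0.11). Leaving libraries out, the osteoblast median ranged from -0.096 to 1.81 and the keratinized one from -0.54 to 2.04. The causes were not tested.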

Other observations

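Imprinted growth genes, a list added after the data were seen, held members on both sides. Of 20 listed, 13 passed the mean of 1000, 5 were higher in Ascl5Mut/Mut without overlap and 2 lower, where 16.7% of all compared genes were higher and 19.5% lower, and the median was 0.34. Igf2, a fetal growth factor, had 4052 and 3959 normalized counts in Ascl5Mut/Mut and 1520 and 1481 in Ascl5Mut/WT (difference 1.35, SD 0.024). Cdkn1c, a cell cycle inhibitor, had 1954 and 1564 against 480 and 550. H19, a non-coding RNA beside Igf2, had 20792 and 14075 against 10819 and 12196, and Gnas, which encodes a G protein subunit, was lower at 3367 and 2186 against 5526 and 4526. Without Ascl5Mut/WT replicate 2 the median of the list was -0.12.

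Glycolysis genes had no common direction. Of 6 past the mean of 1000, Ldha, lactate dehydrogenase A, was higher, with 4595 and 2460 against 490 and 1587, and Pgam1, phosphoglycerate mutase, and Gapdh were lower, with 698 and 275 against 1590 and 1733 and 4123 and 3077 against 4523 and 6504. Of 10 chaperone genes past the mean, 4 were lower and 1 higher, where 19.5% and 16.7% of all compared genes were. Hsp90b1, a chaperone of the endoplasmic reticulum, had 3449 and 3342 against 7002 and 4426.

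Within 10 Mb of Ascl5 on chromosome 1, 17 genes were compared, with a median difference of -0.35. Among them Srgap2, a regulator of cell protrusions, was called lower, with 563 and 674 against 1972 and 5141. Of all called genes, 2 of 31 higher and 4 of 51 lower lie on chromosome 1, which holds 6.35% of the compared genes. RNA of the Y-linked gene Eif2s3y was above 0 only in replicate 1 of each genotype, at 1098, 1216 and 778 in Ascl5Mut/Mut, Ascl5Mut/WT and Ascl5WT/WT, so this gene differed between replicates in every genotype. The X-linked Xist was above 0 in every library and higher in replicate 2 of each genotype. It had 322 and 9751 in Ascl5Mut/Mut, 1374 and 8934 in Ascl5Mut/WT and 3060 and 6106 in Ascl5WT/WT. The exons of Xist overlap Tsix on the opposite strand by 1980 bases.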
